A study of Drosophila melanogaster with 4 samples.

Results

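Genes of the sarcomere, the contractile unit of striated muscle, together with 1 muscle LIM gene were followed through an RNA immunoprecipitation experiment on Drosophila larvae. The 10 genes were Mhc, Mlc1, Mlc2, Act57B, Act87E, Tm1, Tm2, up, wupA and Mlp84B. Their probes were found through the single gene symbol that the platform annotation gives a probe, brought up to date by gene identifier. This gave 7 of the 15744 probes on the array, for 6 of the 10 genes: Act87E had 2 probes, and Mlc1, Mlc2, Tm2, up and Mlp84B had 1 each. No probe carried the name of Mhc, Act57B, Tm1 or wupA in the annotation used, so these 4 genes were not analysed here. All 7 probes had a value on every array and entered the test.

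The series asked which messenger RNAs are bound by B52, an SR protein that takes part in the choice of splice sites, in the developing eye. One group of larvae was GMR X GFP-B52 and the control group was GMR X GFP-NLS, in which GFP carries a nuclear localisation signal; no further alleles are given in the labels. Both transgenes were under GMR, a driver active in the developing eye. The third instar larvae were cut so that their front part was kept, 600 to an extract. The extract was thus made from the front part and not from the eye alone, and which tissues gave RNA was not checked. GFP and what it held were pulled down with an anti-GFP antibody from both kinds of larvae, and the polyadenylated RNA of both was hybridised together on two-colour arrays, in 2 replicates with both dye orientations each, which makes 4 arrays and 1 comparison.

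In a sarcomere, thick filaments of myosin slide along thin filaments of actin, and the thin filaments open to myosin when calcium binds the troponin complex and tropomyosin shifts. Myosin is made of heavy chains (Mhc) with an essential (Mlc1) and a regulatory (Mlc2) light chain. Act57B and Act87E encode muscle actins, Tm1 and Tm2 tropomyosins, up troponin T and wupA troponin I. Mlp84B encodes a protein of LIM domains, zinc-binding folds that hold proteins together, which sits at the edges of the sarcomere in larval muscle. Larvae have such muscle in the body wall and around the mouthparts, and many of these genes are known for alternative splicing in flies. The array values compare 2 precipitates and give no level of any RNA, so whether muscle RNA was present in either extract could not be checked against markers.

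Values are log ratios in deposited units, of which neither the log base nor the direction is given in the sources used here. Each array was centred on its median, and the sign of the 2 arrays on which Cy5 marked the B52 RNA was turned. On the reading that the deposited columns hold a fixed ratio of the dyes, this gives a fixed ratio of the precipitates. The choice was made from the values of 1 probe for B52, so the agreement of its arrays is no separate evidence for it. The positive side is that of 1 of the 5 probes for B52, probe 13309, which lay at 0.47 ± 0.05 (SD, n = 2). The other 4 had means between -0.33 and 0.13. Of these, probe 832 lay at 0.41 and -0.09 on the Cy5 and Cy3 arrays of replicate 1. On those of replicate 2 it lay at 0.21 and -0.004. Probe 832 would be negative on all 4 arrays if none were turned. The remaining B52 probes had arrays on both sides of 0 with or without turning. Which precipitate was richer on the positive side is not known, and the directions below are relative to probe 13309. The replicate labels do not say whether the larvae were separate, so the spread behind the p-values is that between these samples and may be technical. Arrays are named below by the replicate and by the dye on the B52 RNA, and values of a replicate are given with the Cy5 array first. The 2 arrays of a replicate were averaged and n is 2. Replicate 1 had the wider spread, with a median absolute deviation of 0.167 and 0.148 over all probes on its arrays, against 0.082 and 0.092 in replicate 2.

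The muscle genes did not lie on 1 side. The means of Mlp84B, Tm2, Mlc2 and up were positive and those of both Act87E probes and of Mlc1 negative, 4 against 3, where 48.8% of all probes were positive and 51.2% negative. None of the 7 passed at an adjusted p under 0.05 in limma over all 13963 probes tested. No probe of the whole array passed on either side (0.0% and 0.0% called). At an unadjusted p under 0.05, 5 of the 7 lay below the threshold, 4 on the positive and 1 on the negative side, where 12.9% of all probes did so, 5.22% on the positive and 7.73% on the negative side. Counted without a test, 3 of the 7 had 1 sign on all 4 arrays, 2 positive and 1 negative, against 5.96% and 8.04% of all probes. The median of the 7 probe means was 0.13, beside -0.003 for all probes tested, but it was 0.0302 without the Cy5 array of replicate 1 and -0.023 when no array was turned. With 7 probes these counts describe the genes and were not read as particular to them.

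**Figure D1:**
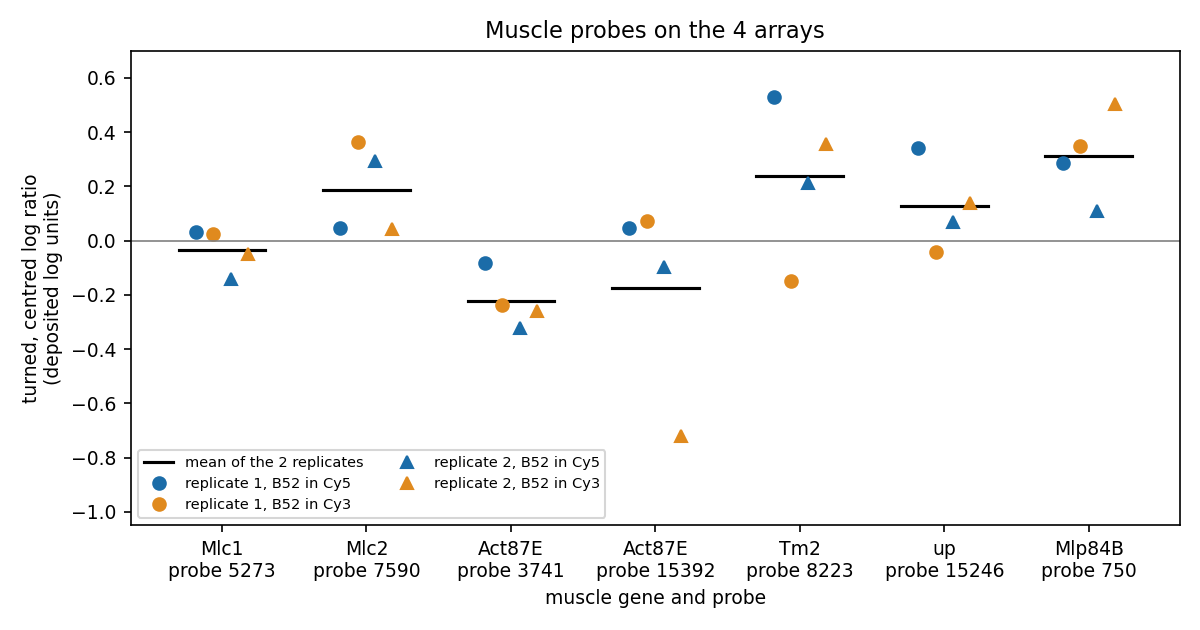
Turned and centred log ratio (vertical axis, deposited log units) of each muscle probe (horizontal axis) on the 4 arrays. Circles are replicate 1, triangles replicate 2, blue the Cy5 arrays, orange the Cy3 arrays (the dye on the B52 RNA), and the bar is the mean of the 2 replicates. The 4 points of Mlp84B and Mlc2 lie above 0 and those of Act87E probe 3741 below 0.

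Among the muscle probes, the one for Mlp84B lay farthest from 0. The gene (CG1019) lies on chromosome arm 3R from 7112850 to 7117732 in assembly Release 6. Its values were 0.29 and 0.35 in replicate 1 and 0.11 and 0.50 in replicate 2. All 4 arrays were on the positive side, and the 2 replicate means, 0.32 and 0.31, hardly differed, although the 2 orientations of replicate 2 stood well apart. The mean was 0.31 ± 0.01 (SD, n = 2), a ratio of 2.05 if the logs are to base 10 and of 1.24 if they are to base 2. Of all probes 1.95% had a mean at least as far from 0. The unadjusted p was 0.00147 and the adjusted p 0.268 in limma. In a fit of single arrays with the replicate as a random block, in place of averaging, Mlp84B passed at an adjusted p of 0.0258. The correlation within replicates in that fit was -0.664, and a negative one shrinks the standard errors. Over the other alternatives the adjusted p ran from 0.0881, with genes tested in place of probes, to 0.891, without the Cy5 array of replicate 1. When no array was turned, the mean of Mlp84B was 0.115.

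The other measured muscle LIM gene, Mlp60A, was on the positive side too, and was singled out after its values were seen. Its arrays lay at 0.18 and 0.23 in replicate 1 and 0.08 and 0.18 in replicate 2, with a mean of 0.17 ± 0.05 (SD, n = 2; adjusted p = 0.314 in limma). Both muscle LIM probes therefore had 4 positive arrays, and neither passed the test. The probes of other genes nearest to the Mlp84B profile over the 4 arrays were LTV1, at a Euclidean distance of 0.143 log units, Gk2 at 0.147 and CG8206 at 0.155.

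Tropomyosin and troponin T had positive means that rested unequally on the arrays. Tm2 (CG4843; 3R, 15310193 to 15315197) lies beside Tm1, the tropomyosin gene without a probe here. Its values were 0.53 and -0.15 in replicate 1 and 0.21 and 0.36 in replicate 2. The Cy3 array of replicate 1 was thus the only one of 4 on the negative side. The mean was 0.24 ± 0.07 (SD, n = 2; unadjusted p = 0.00679, adjusted p = 0.277 in limma), a ratio of 1.73 to base 10 or 1.18 to base 2. When the highest array, the Cy5 array of replicate 1, was left out, the mean was 0.07, and without the negative array it was 0.41.

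The gene up (CG7107; X, 13593474 to 13602578), which encodes troponin T, the subunit that ties the troponin complex to tropomyosin, had the same order of arrays within replicate 1. Its values were 0.34 and -0.04 in replicate 1 and 0.07 and 0.14 in replicate 2. As for Tm2, the only negative array was the Cy3 array of replicate 1. The mean was 0.13 ± 0.03 (SD, n = 2; unadjusted p = 0.0457, adjusted p = 0.378 in limma), and 18.3% of all probes lay at least as far from 0. It was 0.03 without the Cy5 array of replicate 1 and 0.22 without its Cy3 array. Tm2 and up also turned negative, to -0.13 and -0.08, when no array was turned, that is, if the deposited columns were already ratios of the precipitates.

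The 3 measured troponin C genes, which encode the calcium-binding subunit of the same complex, did not share 1 direction. TpnC73F lay at 0.28 and 0.21 in replicate 1 and 0.28 and 0.12 in replicate 2, with a mean of 0.23 ± 0.03 (SD, n = 2; adjusted p = 0.277 in limma). TpnC4 had a mean of 0.12 ± 0.18, and TpnC41C one of -0.13 ± 0.20 that rested on 1 array at -0.61. TpnC4 and TpnC41C were singled out with their values in view. Only TpnC73F of these 3 kept 1 sign on all 4 arrays.

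The myosin light chains stood apart from each other. Mlc2 (CG2184; 3R, 30171438 to 30174551), the regulatory light chain, had values of 0.05 and 0.36 in replicate 1 and 0.29 and 0.04 in replicate 2. All 4 arrays were positive, but the high orientation was Cy3 in replicate 1 and Cy5 in replicate 2. Its mean was 0.19 ± 0.03 (SD, n = 2; unadjusted p = 0.0121, adjusted p = 0.292 in limma), a ratio of 1.53 to base 10 or 1.14 to base 2. Without the Cy3 array of replicate 1 the mean was 0.11, and 0.12 without the Cy5 array of replicate 2. When no array was turned, it was 0.017.

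Mlc1 (CG5596; 3R, 27657078 to 27660177), the essential light chain, lay near 0. Its values were 0.03 and 0.02 in replicate 1 and -0.14 and -0.05 in replicate 2, so the replicates were on opposite sides. The mean was -0.03 ± 0.09 (SD, n = 2; adjusted p = 0.821 in limma), and 67.0% of all probes lay at least as far from 0. The non-muscle essential light chain gene Mlc-c, chosen after its values were seen, had a mean of 0.12 ± 0.11 (adjusted p = 0.469 in limma), with its highest array at 0.46 and the remaining ones from -0.07 to 0.06.

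The muscle actin gene Act87E had a negative mean in both of its probes, with 4 negative arrays in 1 of them and 2 in the other. Act87E (CG18290; 3R, 13425983 to 13428375) was measured by probe 3741 at -0.08 and -0.24 in replicate 1 and -0.32 and -0.26 in replicate 2. All 4 arrays of this probe were negative. Its mean was -0.22 ± 0.09 (SD, n = 2), with an unadjusted p of 0.0116 and an adjusted p of 0.292 in limma. This is a ratio of 1.67 to base 10 or 1.17 to base 2 towards the negative side. In the limma fit with the random block the adjusted p was 0.0499. When no array was turned, the mean of probe 3741 was -0.023. Probe 15392 of the same gene lay at 0.05 and 0.07 in replicate 1 and at -0.10 and -0.72 in replicate 2. Its mean of -0.18 ± 0.33 (SD, n = 2; adjusted p = 0.57 in limma) rested on the Cy3 array of replicate 2, at -7.85 median absolute deviations, and was -0.02 without it. Without the other array of replicate 2 it was -0.33.

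The means of the 2 Act87E probes were 0.05 apart, less than the median gap of 0.07 among the 388 genes with exactly 2 tested probes. Their largest gap on 1 array, 0.46, exceeded that of 69.3% of those genes, whose median was 0.35. Over those genes the 2 means had the same sign in 58.2%. Actin genes are near-identical in their coding sequence, and the positions of the probes in the transcript were not analysed here, so a probe may also have bound RNA of other actins. Those with a probe on the list of other sarcomere genes, both chosen after their values were seen, were Act88F, the flight muscle actin gene, with a mean of -0.10 ± 0.06 (adjusted p = 0.456 in limma), and Act79B, with a mean of 0.03 ± 0.02 (adjusted p = 0.841).

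**Figure D2:**
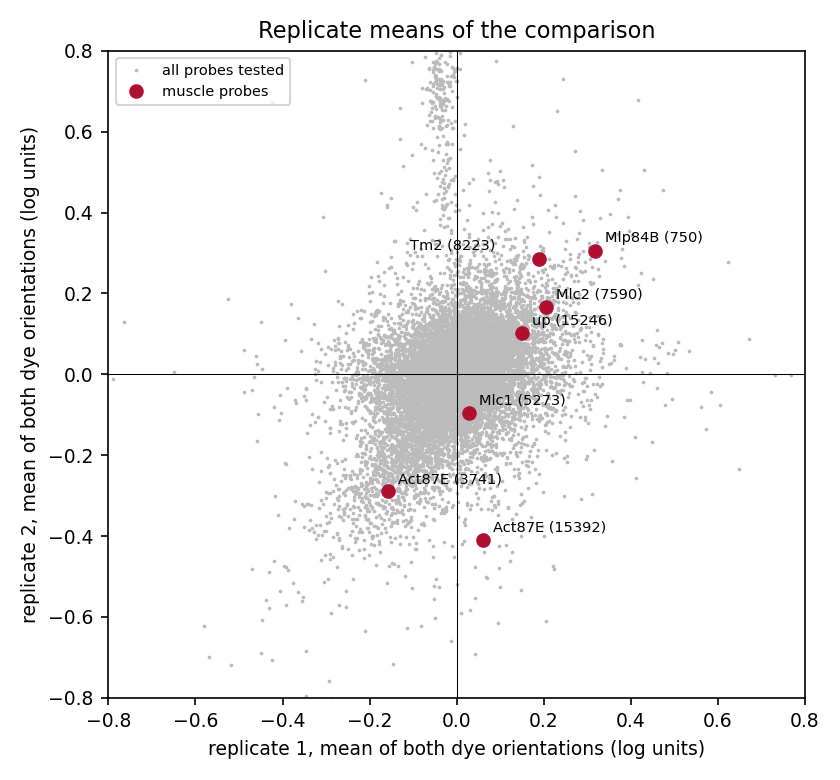
Mean of both dye orientations in replicate 1 (horizontal axis) against replicate 2 (vertical axis), in deposited log units, for all 13963 probes tested (grey) and the 7 muscle probes (red); 28 probes lie outside the plotted range of 0.8 either way. Mlp84B, Tm2, Mlc2 and up are positive in both replicates and Act87E probe 3741 is negative in both, while Mlc1 and Act87E probe 15392 change sign; the upright grey band holds most of 243 probes near 0 in replicate 1 and above 0.4 in replicate 2, of which 218 have no gene symbol here.

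Replicate means had the same sign in both replicates for 5 of the 7 probes, against 60.8% of all probes. In the order of the means, Mlp84B was followed by Tm2, Mlc2, up, Mlc1, Act87E probe 15392 and Act87E probe 3741. Of the 6 steps between neighbours, those from Mlp84B to Tm2, from Mlc2 to up and from up to Mlc1 ran the same way in both replicates. The step from Mlp84B to Tm2, 0.07 ± 0.07 (SD, n = 2), was about as large as its spread. Tm2 and Mlc2, Mlc1 and Act87E probe 15392, and the 2 Act87E probes changed places between the replicates. The ends of the order were apart on every array: the Mlp84B ratio exceeded that of Act87E probe 3741 by 0.37 and 0.58 in replicate 1 and by 0.43 and 0.76 in replicate 2. This difference of 0.54 ± 0.08 (SD, n = 2) was larger than its spread, but these 2 probes were picked as ends of the order, and 2 replicates cannot give an exact two-sided p below 0.5.

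The dye pattern, the distance of the Cy5 arrays from the mean over all 4 arrays, was smaller than the mean for all 7 probes. It was -0.12 for Mlp84B, 0.13 for Tm2, 0.08 for up, -0.02 for Mlc2 and 0.02 for Act87E probe 3741. For Act87E probe 15392 it was 0.15 and for Mlc1 -0.02. With its sign reversed, the dye pattern is the mean when no array was turned. The smallest adjusted p for the dye pattern in limma was 0.672 among the 7. For no muscle probe did the 2 orientations lie on opposite sides on all arrays.

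**Figure D3:**
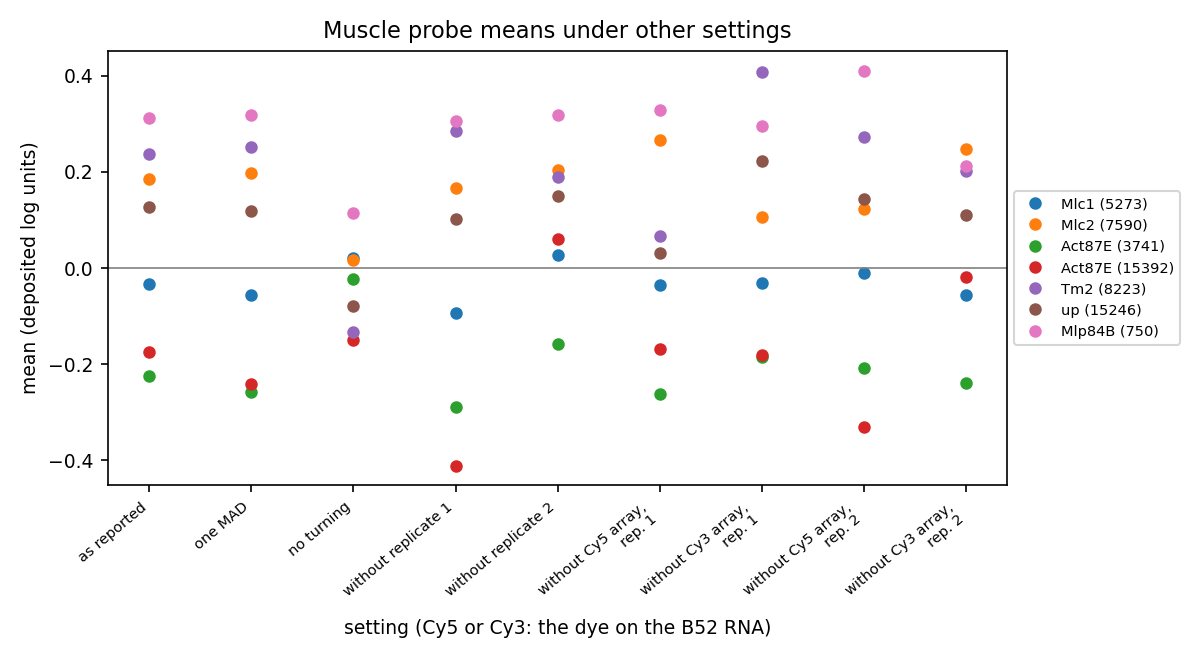
Mean of each muscle probe (vertical axis, deposited log units) as reported and under other settings (horizontal axis): arrays scaled to one median absolute deviation (MAD), no array turned, and 1 replicate or 1 array left out. Mlp84B lies above 0 and Act87E probe 3741 below 0 in each setting drawn. Each had 1 sign on every array, so scaling or leaving out arrays could not move it across 0. Without turning they lie at 0.115 and -0.023, which is the dye pattern with its sign reversed. Without turning, Tm2 and up are below 0 and Mlc1 is above 0. Mlc1 and Act87E probe 15392 are above 0 without replicate 2.

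Further genes of muscle were described from lists, beside the 7 probes. The lists were chosen with earlier results of these data known. Of 27 other genes of the sarcomere and its attachment 24 were measured, by 35 tested probes, of which 21 had a positive and 14 a negative mean. Their median was 0.02, within a range from -0.26 to 0.30. On all arrays 4 positive and 3 negative probes kept 1 sign, against 5.96% and 8.04% of all probes. None passed over all probes. At an unadjusted p under 0.05 in limma there were 6 positive and 3 negative probes, against 5.22% and 7.73% of all probes. The largest moderated statistics belonged to Msp300, a nesprin that anchors muscle nuclei, at 0.30 ± 0.02, TpnC73F, the Z-disc crosslinker gene Actn at 0.20 ± 0.01 and the Z-disc gene Zasp66 at -0.26 ± 0.16 (SD, n = 2; adjusted p between 0.268 and 0.3 in limma). That Msp300 probe, 6574, had an array at -0.26 and another at 0.83, both of replicate 2. The other Msp300 probes did not share its direction, with probe 469 at -0.08 ± 0.03, negative on all 4 arrays, and probe 5791 at 0.16 ± 0.14. Likewise 2 further Zasp66 probes had positive means, of 0.06 ± 0.05 and 0.02 ± 0.04. Without the Cy5 array of replicate 1, the median of the list was -0.02, and without its Cy3 array it was 0.07.

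For the 9 genes of muscle calcium handling and energy, 6 were measured by 10 tested probes, with 7 positive and 3 negative means and a median of 0.06. Without the Cy3 array of replicate 1 the median was -0.02. The glycerol 3-phosphate dehydrogenase gene Gpdh1 led it with 1 probe at -0.28 ± 0.06 (adjusted p = 0.268 in limma), negative on all 4 arrays, while another probe of the gene was at 0.11 ± 0.08 (adjusted p = 0.458). The channel genes Ca-alpha1D and RyR had means of 0.12 ± 0.02 and 0.10 ± 0.02 (adjusted p = 0.385 and 0.458 in limma). No probe of this list passed.

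The regulators of muscle development had mostly negative means. Of 12 measured of 14 listed, 11 had a negative mean and 1 a positive one, where 51.2% of all probes were negative. Their median was -0.06. This list too was chosen with earlier results of these data known, so its direction is no finding. The LIM homeobox gene ap lay at -0.26 ± 0.04 (adjusted p = 0.268 in limma), Him at -0.14 ± 0.07 (adjusted p = 0.377), nau, which encodes the fly MyoD relative, at -0.12 ± 0.04 (adjusted p = 0.385) and kon at -0.15 ± 0.16 (adjusted p = 0.45). None of the 12 kept 1 sign on all 4 arrays, and none passed. Several of these genes also act in other tissues of the larva. Without turning, the median was -0.01. It was -0.03 without the Cy5 array of replicate 1 and also without the Cy3 array of replicate 2, and -0.04 without the Cy3 array of replicate 1.

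Non-muscle actin and myosin genes lay on both sides of 0. Of 16 listed, 7 genes were measured by 9 tested probes, 4 positive and 5 negative, with a median of -0.02. That median was -0.08 without the Cy5 array of replicate 1 and 0.03 without its Cy3 array. The kinase gene sqa had a mean of -0.13 ± 0.04 (adjusted p = 0.367 in limma) and the cofilin gene tsr one of 0.08 ± 0.01 (adjusted p = 0.504), with 4 positive arrays.

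**Figure D4:**
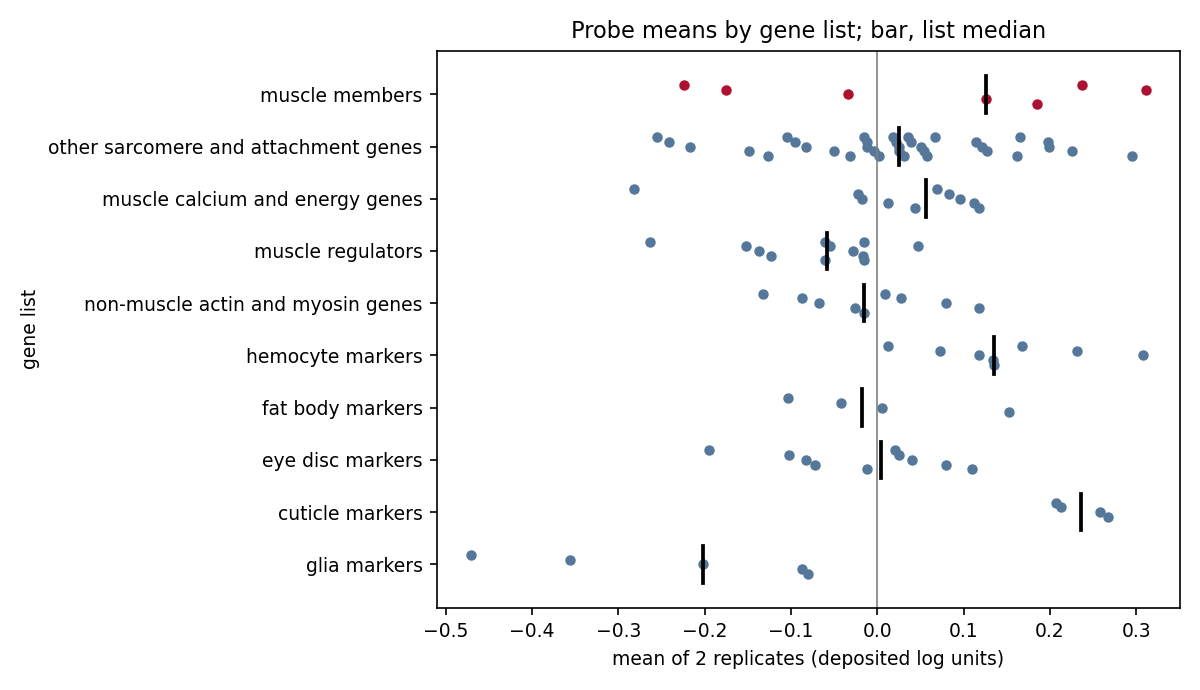
Mean of the 2 replicates (horizontal axis, deposited log units) of each tested probe in the gene lists (vertical axis), with the list median as a bar; the muscle members are red and the vertical offset of points has no meaning. The muscle members spread over both sides of 0, from -0.22 to 0.31. The tested probes of hemocytes and of cuticle lie above 0 and those of glia below. The measured cuticle genes and several other markers had been seen with their values when the lists were made, so their direction is no finding.

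Markers of other tissues of the front part were set beside the muscle genes. Over all probes 48.8% had a positive and 51.2% a negative mean. Of the listed genes, 4 of 8 were measured for cuticle, 5 of 6 for glia and 4 of 6 for fat body. All listed genes of hemocytes and of the eye disc were measured. All 8 tested hemocyte probes had positive means, with a median of 0.13, 0.07 in replicate 1 and 0.18 in replicate 2, and were led by the prophenoloxidase gene PPO2 at 0.23 ± 0.04 and the phagocytosis receptor gene eater at 0.31 ± 0.14, ahead of NimC1 at 0.13 ± 0.02 and the collagen gene Col4a1 at 0.14 ± 0.08. All 4 cuticle probes were positive, with a median of 0.24: Lcp9 had a mean of 0.27 ± 0.05, Cpr56F of 0.21 ± 0.02, Lcp65Ac of 0.21 ± 0.09 and Ccp84Ad of 0.26 ± 0.15. All 5 glia probes were negative, with a median of -0.20, led by Gs2 at -0.47 ± 0.09, Gli at -0.36 ± 0.03, repo at -0.20 ± 0.07 and moody at -0.08 ± 0.01. Without turning, the medians were 0.04 for hemocytes, -0.05 for cuticle and -0.03 for glia. The measured cuticle genes and several of the other markers had been seen with their values when the lists were made, so their direction is no finding. Fat body probes, 2 positive and 2 negative, had a median of -0.02, with Fbp2 at 0.15 ± 0.03, Fbp1 at -0.10 ± 0.09, apolpp at -0.04 ± 0.02 and Lsp2 at 0.01 ± 0.06. Eye disc probes, 5 positive and 5 negative, had a median of 0.004, between -0.05 and 0.03 with 1 array left out, and were led by sens at -0.20 ± 0.03, chp at -0.10 ± 0.02, ro at 0.11 ± 0.10 and so at -0.08 ± 0.04. None of these probes passed in limma, where the smallest adjusted p among them was 0.268, and the part of other tissues in the muscle values was not tested. A ratio between precipitates of bulk extracts cannot tell a different share of muscle cells from a different recovery of each RNA.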

How the data were processed

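Two-colour arrays compared RNA precipitated from GFP-B52 and GFP-NLS larvae on 4 arrays, 2 replicates with both dye orientations. The authors deposited their values as log ratios between the channels, neither counts nor intensities, and so another kind of unit. Log base, direction, background correction and normalization: not given in the sources used here; array medians between 0.002 and 0.006 show centring. There were 16 placeholder cells of -10000, treated as missing. Of 15744 probes 13147 had exactly 1 gene symbol, 99 several and 2498 none here; 12519 took the current symbol through the gene identifier and 628 kept the annotation's. Intensities were not used here, so signal over background is unknown, and the number of arrays limits the precision.

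The median of each array was subtracted, the sign of both arrays with Cy5 on the B52 RNA was turned, a choice made from the values of 1 B52 probe, and the 2 arrays of a replicate were averaged, since the study's design text calls the arrays of a replicate a dye swap. The 13963 probes without a missing array entered limma 3.58.1 (R 4.3.3; lmFit, eBayes, 3.47 prior degrees of freedom), as the mean of 2 replicates against 0, with Benjamini-Hochberg adjustment over all probes and a threshold of 0.05. The script was tested on simulated data. After turning, deviations of same-numbered arrays from the mean of their orientation correlated at -0.341 across probes. In the deposited signs this correlation is positive and of the same size.

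All member probes are named, with up to 4 probes of each other list by the absolute moderated statistic, the 3 probes nearest to the member farthest from 0, and B52. One gene that this rule names is not reported here. Of 114 list entries 4 matched no gene of the Release 6 table. The members and lists were chosen with earlier results of these data known. Alternatives were no centring, scaling to one median absolute deviation, no turning, a random block, separate arrays with a dye term, leaving out replicates or arrays, probes with missing arrays, and genes in place of probes.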

Additional observations from a re-analysis of the deposited data

How the results depend on the processing

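Over all probes, 0 and 0 were called on the positive and negative side. With the replicate block these were 118 and 329, and without turning 34 and 58; with the crossed pairing of arrays, chosen after seeing the data, 1 was called on the negative side. Of the 7 muscle probes 0 were called, and 2 with the replicate block, Mlp84B and Act87E probe 3741; the correlation of -0.664 that this fit took comes with it, and the block changed no other muscle call. The median of the 7 was 0.13, and -0.023 without turning. It ran from 0.0302, without the Cy5 array of replicate 1, to 0.1505 when 1 replicate or 1 array was left out. Without turning, the mean of a probe is its dye pattern with the sign reversed, so it was no separate check of the side. Mlc1 then lay at 0.021, Tm2 at -0.134 and up at -0.079, of the opposite sign to the reported mean. The remaining probes had the sign of the reported mean, with Mlp84B at 0.115 and Mlc2 at 0.017. Act87E probe 3741 then lay at -0.023 and probe 15392 at -0.149. With 1 array or 1 replicate left out, all 7 kept their side except Mlc1 and Act87E probe 15392, which lay at 0.03 and 0.06 without replicate 2. Leaving out a replicate gave values with no test. No centring, scaling to one median absolute deviation, separate arrays with a dye term, missing arrays allowed and, for single probes, genes in place of probes changed neither side nor call of any muscle probe. The causes of these changes were not tested. A replicate with 1 array left out holds a single dye orientation.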
